A study of Rattus norvegicus with 9 samples.

Results

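Ion channel genes were examined in the RNA sequencing profiles of 9 libraries of rat vascular smooth muscle cells. They were taken as the genes whose symbol in the deposited table starts with the names of the potassium, voltage-gated calcium, transient receptor potential, chloride, intracellular chloride, voltage-gated sodium, Piezo, anoctamin or P2X families, together with the sulfonylurea receptor genes. Of the 26401 genes used from the table, 195 matched, and 42 of these had a mean of at least 1 FPKM (fragments per kilobase, scaled to library size) over the 9 libraries. Of the other 153 genes, 91 were detected below that level and 62 were listed at 0 in all 9 libraries. The choice used symbols and the mean over all libraries, not a difference between groups. Potassium channels accounted for 14 of the 42, voltage-gated calcium channels for 3, non-selective cation channels for 11, sodium channels for 2 and chloride channels for 12, each count including auxiliary subunits. Closest to the limit were Kcne2 with a mean of 1.01 FPKM just inside it and Cacnb4 with 0.999 FPKM just outside it.

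In vascular smooth muscle, potassium efflux holds the membrane at a negative voltage and keeps voltage-gated calcium channels closed, so potassium channels favour relaxation. Depolarisation opens L-type calcium channels, and the calcium that enters drives contraction. Transient receptor potential and calcium-activated chloride channels carry depolarising currents, and the calcium-activated chloride channel Ano1 couples agonist-released calcium to membrane voltage. Cultured smooth muscle cells that leave the contractile state are known to change the set of channels they express.

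The cells were S31, wild-type primary vascular smooth muscle cells isolated from heart microvessels of Wistar Kyoto males, a rat strain, and grown in medium with 10% serum. All groups were kept without serum for 48 h. The control libraries (columns LH-NS, n = 3) then received serum-free medium with no growth factor and were harvested at 24 h. The treated groups received 25 ng/ml of a growth factor, either recombinant rat PDGF-BB with harvest at 48 h or recombinant human IGF-1 with harvest at 24 h (n = 3 each). The sources disagree on which is which, because the sample records titled PDGF-BB point to the columns named IGF-NS and the records titled IGF-1 point to the columns named PDGF-NS. The groups are therefore called IGF-NS and PDGF-NS by their columns, and no growth factor is assigned to them here. For the group harvested at 48 h, growth factor and time cannot be told apart against controls harvested at 24 h. The treated groups also differ from each other in harvest time under either naming. In every comparison of PDGF-NS with IGF-NS, growth factor and time therefore cannot be told apart. The labels do not show that libraries of a group came from separate cultures, so the tests speak for the spread among these libraries, which could be technical.

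FPKM sums ran from 616765 to 748000 over the 9 libraries, and 11047 to 11348 genes reached 1 FPKM. Summed over 8 smooth muscle markers, the level was 2314.2 to 3301.3 FPKM in LH-NS, 502.9 to 528.6 in IGF-NS, against 284.2 to 352.7 in PDGF-NS, a sum made up mostly of Tagln. Of the 7 markers tested, 5 were lower in IGF-NS than in LH-NS and none higher, and in PDGF-NS 5 were lower and 1, Des, was 3.43-fold higher (limma adjusted p = 0.00036). The defining marker Myh11, the smooth muscle myosin heavy chain, was 1.31 to 2.60 FPKM in LH-NS, 0.305 to 0.478 in IGF-NS, against 0.572 to 0.702 in PDGF-NS. The 6 endothelial markers summed to at most 0.788 FPKM (Cdh5 and Kdr were listed at 0), and the 6 glial and neuronal markers to at most 1.83 FPKM (Snap25 and Sox10 at 0). Macrophage and leukocyte markers, 5 of 6 found in the table, summed to 17.9 to 27.0 FPKM in LH-NS, 22.6 to 30.8 in IGF-NS, against 43.6 to 89.8 in PDGF-NS, mostly Cd14, while Ptprc was at 0. Cardiomyocyte markers, 6 of 7 found, summed to 10.6 to 23.2, 8.66 to 19.8 and 1.96 to 5.33 FPKM in that order, mostly Tnnt2, with Myh6 at 0. The 6 fibroblast markers summed to 314.4 to 448.6, 1917.4 to 2036.2 and 852.3 to 1339.8 FPKM, mostly Lum. Of these 6, 4 were higher and none lower in IGF-NS than in LH-NS. In PDGF-NS, 5 were higher and 1, Col14a1, was 1.93-fold lower than in LH-NS (limma adjusted p = 0.027). The 4 proliferation markers summed to 54.2 to 68.9, 92.8 to 139.5 and 42.1 to 62.1 FPKM. The part of these differences in the channel results was not tested, and in bulk RNA a smaller share of a cell type and less RNA per cell cannot be told apart.

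Channel genes that passed the test included both rises and falls in each treated group, and in PDGF-NS 17 rose and 5 fell. Each gene was tested with limma on log2(FPKM + 1) in one fit of all 11376 genes that averaged at least 1 FPKM, with Benjamini-Hochberg adjustment over all of them and a threshold of 0.05. In IGF-NS against LH-NS, 8 of the 42 channel genes rose, 7 fell and 27 did not pass, against 24.9% of all genes called (17.4% higher and 7.48% lower). In PDGF-NS against LH-NS, 17 rose, 5 fell and 20 did not pass, against 31.0% of all genes called (20.7% higher and 10.2% lower). In PDGF-NS against IGF-NS, 15 were higher, 1 was lower and 26 did not pass, against 15.9% of all genes called (8.33% higher and 7.55% lower). The 3 comparisons share libraries with each other and are given side by side only.

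The libraries of the compared groups did not overlap for 23 of the 42 genes in IGF-NS against LH-NS (39.0% of all genes), for 25 in PDGF-NS against LH-NS (48.6%) and for 24 in PDGF-NS against IGF-NS (36.3%). Against LH-NS, the median log2 fold change of the 42 genes was 0.03 for IGF-NS and 0.13 for PDGF-NS, and between the treated groups it was 0.23. The medians over all tested genes were 0.15, 0.13 and -0.02, so the individual changes stand against a shifted centre in both comparisons with LH-NS. Rescaling each library by the median ratio moved those centres to 0.01 and 0.02, and the channel counts were then 6 higher and 10 lower in IGF-NS and 16 higher and 6 lower in PDGF-NS. Of the 42 genes, 6 had a group mean under 1 FPKM (among them Scn4a, Kcng1, Clic3, Kcne2 and CLIC5) and passed the level filter through another group, so these counts describe the genes and are no support for a difference. Without PDGF-NS replicate 1, 3 genes and not 5 were lower in PDGF-NS than in LH-NS. The count of 1 gene lower in PDGF-NS than in IGF-NS became 2 without LH-NS replicate 1, without IGF-NS replicate 2 or without PDGF-NS replicate 2.

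**Figure D1:**
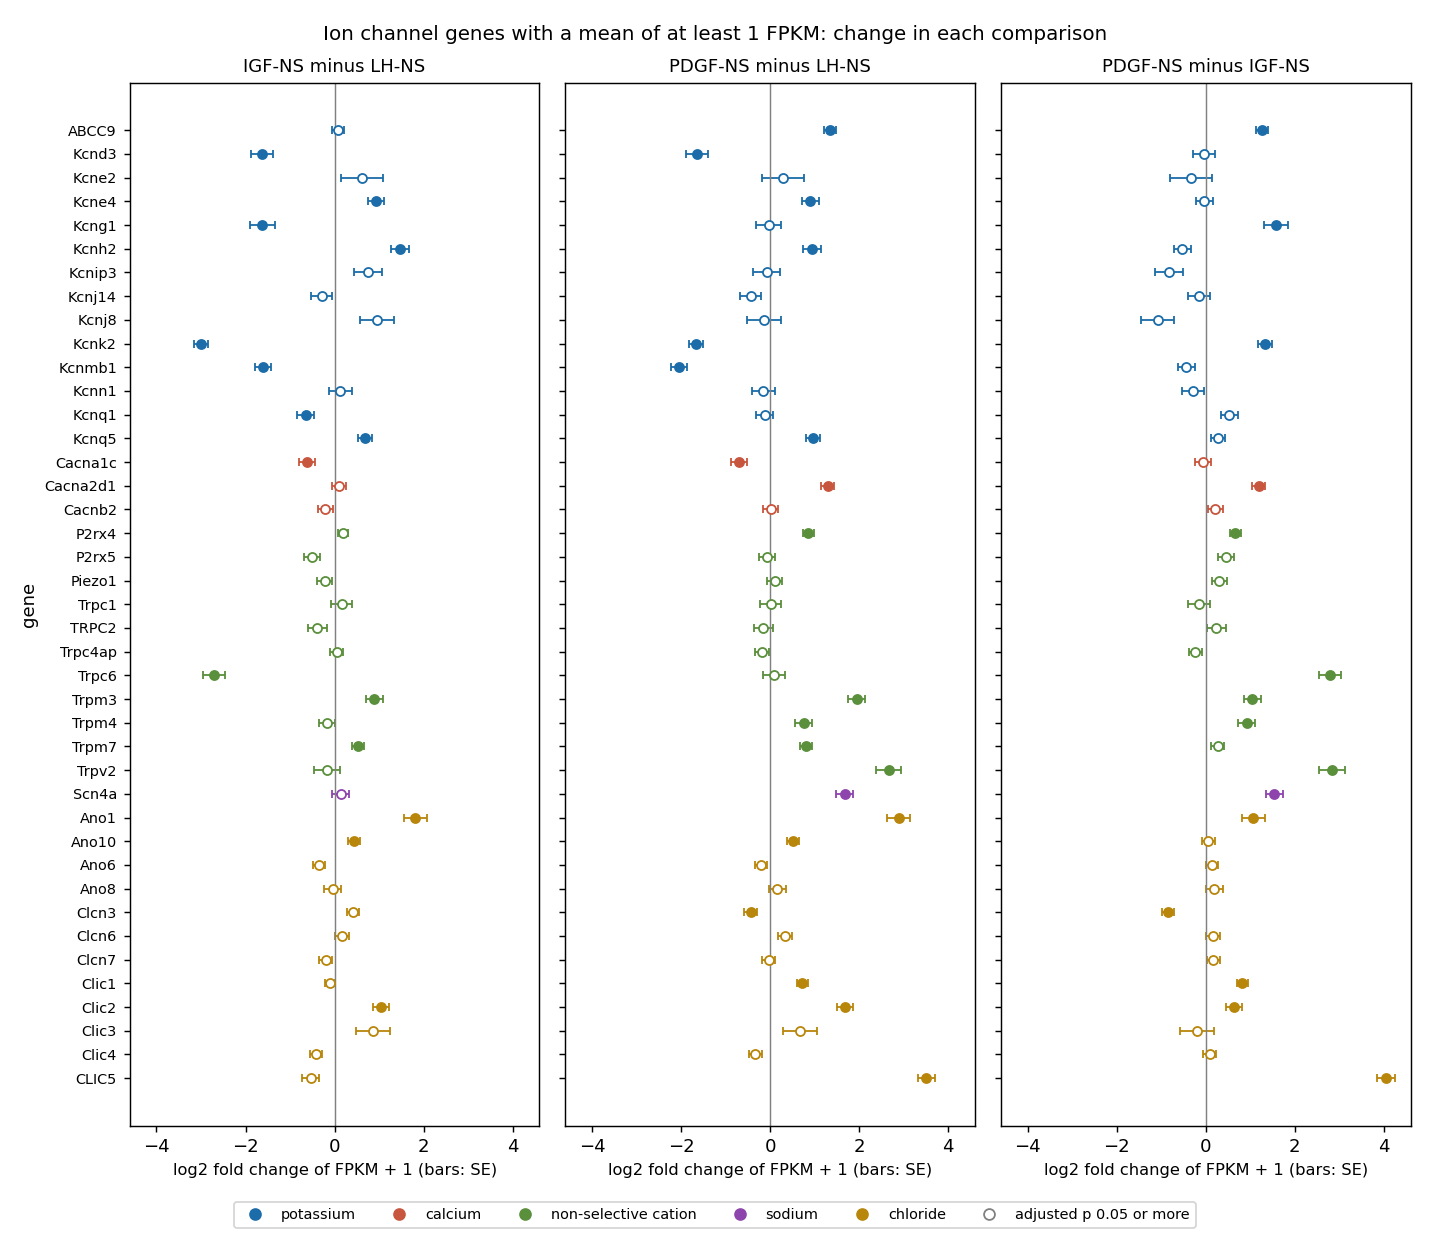
Log2 fold change of FPKM + 1 (x axis, bars show the standard error from limma) for 41 ion channel genes (y axis) in the 3 comparisons, coloured by the ion. Filled points passed at an adjusted p under 0.05: 8 higher and 7 lower in IGF-NS, 16 higher and 5 lower in PDGF-NS, and 14 higher and 1 lower between the treated groups.

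Among the potassium channels, Kcnk2, Kcnmb1 and Kcnd3 fell in both treated groups, and Kcnh2, Kcnq5 and Kcne4 rose in both. Of the 14 tested, 3 rose and 5 fell in IGF-NS, and 4 rose and 3 fell in PDGF-NS. As shares these are 21.4% higher and 35.7% lower in IGF-NS (17.4% and 7.48% of all genes tested), and 28.6% and 21.4% in PDGF-NS (20.7% and 10.2%). Kcnk2 encodes a tandem-pore background channel opened by membrane stretch and lipids. It was at 50.4, 36.0 and 36.7 FPKM in LH-NS, 3.81, 4.03 and 4.76 in IGF-NS, against 10.8, 13.5 and 12.1 in PDGF-NS. The 3 groups did not overlap, with LH-NS highest and IGF-NS lowest. By limma with Benjamini-Hochberg adjustment, Kcnk2 fell by 3.00 ± 0.16 (SE) on the log2 scale in IGF-NS (9.77-fold lower mean FPKM, adjusted p = 6.7e-06) and by 1.67 ± 0.16 in PDGF-NS (3.38-fold lower, adjusted p = 5.6e-05). It was 2.89-fold higher in PDGF-NS than in IGF-NS (adjusted p = 4e-04).

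The voltage-gated potassium channels split. Kcnd3, which forms a rapidly inactivating A-type channel, was at 10.5, 6.52 and 7.56 FPKM in LH-NS, 1.30, 1.63 and 3.15 in IGF-NS, with 2.29, 1.60 and 1.78 in PDGF-NS. Every treated library was below every control, while the treated groups overlapped. Kcnd3 fell by 1.63 ± 0.25 on the log2 scale in IGF-NS (4.05-fold lower, limma adjusted p = 0.0015) and by 1.65 ± 0.25 in PDGF-NS (4.34-fold lower, adjusted p = 0.00079). Kcng1 encodes a subunit that forms no channel alone and modifies the channels of other voltage-gated subunits. It was at 5.82, 3.30 and 2.21 FPKM in LH-NS, 0.371, 0.492 and 0.603 in IGF-NS and, for PDGF-NS, 2.37, 3.64 and 4.61. Only IGF-NS stood apart: mean Kcng1 was 7.73-fold lower there than in LH-NS and 7.25-fold higher in PDGF-NS than in IGF-NS. PDGF-NS and LH-NS overlapped (log2 difference -0.03, limma adjusted p = 0.94). Kcng1 averaged 0.489 FPKM in IGF-NS and reached the level filter through the other groups. The differences from IGF-NS are therefore given as a description, and their ratios rest on low values.

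Kcnq1, a slowly activating voltage-gated channel, was at 3.14 ± 0.567 FPKM (SD, n = 3) in LH-NS, 1.65 ± 0.454 in IGF-NS and 2.80 ± 0.353 in PDGF-NS. It fell by 0.65 on the log2 scale in IGF-NS (limma adjusted p = 0.031, 0.01 to 0.099 over 17 alternatives), and the call was lost without LH-NS replicate 1 or 2 (adjusted p = 0.079 and 0.089) and without IGF-NS replicate 1 or 2 (0.079 and 0.099). Kcnh2 and Kcnq5 went the other way in both groups. Kcnh2, the hERG channel of cardiac repolarisation, was at 3.34, 2.55 and 2.51 FPKM in LH-NS, 9.55, 8.04 and 10.8 in IGF-NS, against 4.90, 8.43 and 5.83 in PDGF-NS. All treated libraries were above all controls, and the treated groups overlapped. Kcnh2 rose by 1.46 ± 0.20 in IGF-NS (3.38-fold, limma adjusted p = 8e-04) and by 0.94 ± 0.20 in PDGF-NS (2.28-fold, adjusted p = 0.0053). Between the treated groups it did not pass (adjusted p = 0.1), but it did without PDGF-NS replicate 2 (adjusted p = 0.043, range 0.042 to 0.3).

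Kcnq5, a subunit of the M-type channels that open near the resting voltage of arterial muscle, was at 13.9, 11.7 and 10.5 FPKM in LH-NS, 18.0, 20.9 and 20.6 in IGF-NS, with 20.0, 26.8 and 26.6 in PDGF-NS. Both treated groups lay above the controls. The rises were 1.65-fold in IGF-NS (limma adjusted p = 0.011) and 2.03-fold in PDGF-NS (adjusted p = 0.0012). Kcnn1, a small-conductance calcium-activated channel, stayed between 2.58 and 6.06 FPKM in the 9 libraries and Kcnj14, an inward rectifier, between 0.838 and 2.70, and neither passed in any comparison.

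The auxiliary subunits held both the BK channel subunit Kcnmb1 and the KATP channel subunit ABCC9. Kcnmb1 encodes the smooth muscle beta subunit that raises the calcium sensitivity of the BK channel. It was at 14.7, 13.9 and 16.1 FPKM in LH-NS, 3.35, 3.75 and 5.82 in IGF-NS and, for PDGF-NS, 2.78, 3.22 and 2.65. Controls were far above both treated groups, which did not overlap each other. Kcnmb1 fell by 1.61 ± 0.18 on the log2 scale in IGF-NS (3.47-fold lower, limma adjusted p = 0.00029) and by 2.04 ± 0.18 in PDGF-NS (5.19-fold lower, adjusted p = 3.3e-05), and the difference between the treated groups did not pass (adjusted p = 0.14). The pore gene of the same channel, Kcnma1, lay below the level filter. It was listed at 0.0998, 0.151 and 0.259 FPKM in LH-NS, 0.456, 0.278 and 0.313 in IGF-NS, against 0.946, 1.13 and 1.06 in PDGF-NS. So the beta subunit was at a higher FPKM, which is per length, than the pore gene in every library, and the pore gene was highest where the beta subunit was lowest. In the fit without a level filter, Kcnma1 was 0.81 higher on the log2 scale in PDGF-NS than in LH-NS (limma adjusted p = 0.00034) and 0.60 higher than in IGF-NS (adjusted p = 0.0026). These differences rest on values of at most 1.13 FPKM and are given as a description.

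ABCC9 encodes the sulfonylurea receptor SUR2, the regulatory subunit of vascular KATP channels, and Kcnj8 the pore that pairs with it. ABCC9 was at 52.8, 61.0 and 48.3 FPKM in LH-NS, 50.3, 67.0 and 55.0 in IGF-NS, with 138.4, 141.5 and 136.4 in PDGF-NS. PDGF-NS stood apart from the other groups, which overlapped. ABCC9 rose by 1.35 ± 0.14 on the log2 scale over LH-NS (2.57-fold, limma adjusted p = 8.3e-05) and was 2.41-fold higher than in IGF-NS (adjusted p = 0.00024), against 0.08 ± 0.14 in IGF-NS over LH-NS (adjusted p = 0.69). Kcnj8 was at 26.2, 12.9 and 9.34 FPKM in LH-NS, 30.7, 29.6 and 28.0 in IGF-NS and, for PDGF-NS, 7.53, 21.0 and 15.0. Every IGF-NS library was above all others, but LH-NS and PDGF-NS varied widely among themselves and no comparison passed. The log2 difference of Kcnj8 was 0.95 ± 0.38 in IGF-NS against LH-NS (limma adjusted p = 0.094, range 0.02 to 0.26) and -1.08 ± 0.38 in PDGF-NS against IGF-NS (adjusted p = 0.083, range 0.033 to 0.26). Both passed without LH-NS replicate 1 (adjusted p = 0.02 and 0.033), the control with the highest Kcnj8.

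Kcne4, which encodes a single-pass subunit that dampens several voltage-gated channels, was at 6.35, 5.42 and 6.15 FPKM in LH-NS, 13.7, 9.51 and 14.0 in IGF-NS, against 9.33, 12.3 and 14.9 in PDGF-NS. Both treated groups were above the controls and overlapped each other, with 2.08-fold (limma adjusted p = 0.0073) and 2.04-fold (adjusted p = 0.0059) rises. Kcne2, of the same family, was listed at 0 in 1 LH-NS and 1 IGF-NS library and reached 3.09 FPKM at most. With all libraries in the fit it passed in no comparison. Kcne2 averaged 0.546 FPKM in LH-NS, 1.65 in IGF-NS and 0.837 in PDGF-NS, so it reached the level filter through IGF-NS alone. Without IGF-NS replicate 3, listed at 0, IGF-NS was above LH-NS (limma adjusted p = 0.03, range 0.03 to 0.82). That call is therefore given as a description. Kcnip3, a calcium-binding partner of A-type channels, was 6.46, 2.07 and 5.99 FPKM in IGF-NS and between 1.54 and 2.57 in the other 6 libraries. It did not pass (limma adjusted p = 0.11 in both comparisons with IGF-NS), but without IGF-NS replicate 2 it was higher in IGF-NS than in LH-NS and in PDGF-NS (adjusted p = 0.0064 and 0.0051, with ranges of 0.0064 to 0.33 and 0.0051 to 0.31).

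**Figure D2:**
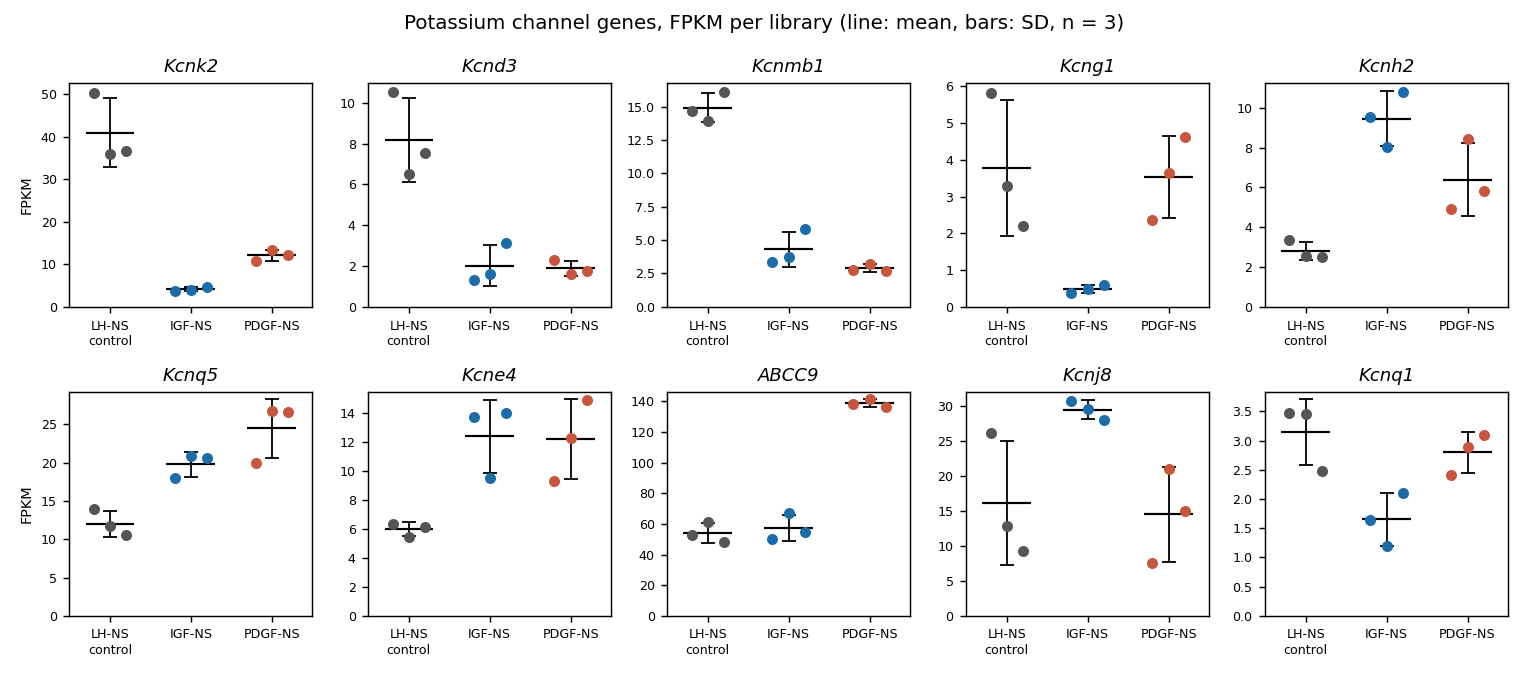
FPKM (y axis, linear, from 0) of potassium channel genes by group, with a point for each library, a horizontal line at the mean of 3 libraries and whiskers for the SD. Kcnk2, Kcnmb1 and Kcnd3 sit lower in all treated libraries than in all controls, and ABCC9 sits at 136.4 to 141.5 FPKM in PDGF-NS against 48.3 to 67.0 elsewhere.

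The promoters of a pair of potassium genes that fell in both treated groups are shown to let their base composition be compared. They are the 250 bases before the start that RefSeq gives in the build GRCr8, which may not be the start used in these cells. The Kcnmb1 window (chr10:19061849-19062098, plus strand) is 50.8% G and C, and the Kcnd3 window (chr2:195626066-195626315, plus strand) 79.6%. Capitals mark a GC box, the motif searched as GGGCGG on both strands.
Kcnmb1: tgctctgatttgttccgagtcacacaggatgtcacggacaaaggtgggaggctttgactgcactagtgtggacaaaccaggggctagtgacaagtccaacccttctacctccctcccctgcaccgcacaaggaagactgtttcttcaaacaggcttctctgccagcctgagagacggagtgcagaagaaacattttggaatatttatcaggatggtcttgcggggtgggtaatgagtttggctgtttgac
Kcnd3: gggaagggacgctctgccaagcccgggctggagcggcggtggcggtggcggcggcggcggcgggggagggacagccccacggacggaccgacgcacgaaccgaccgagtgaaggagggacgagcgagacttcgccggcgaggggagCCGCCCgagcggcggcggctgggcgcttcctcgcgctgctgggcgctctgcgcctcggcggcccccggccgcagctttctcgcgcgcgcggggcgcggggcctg

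Further motifs were searched in the same way. These were the CArG box of serum response factor, the TEAD element CATTCC and the AP-1 site TGANTCA, where N is any base. Of the 42 genes, 31 matched a RefSeq promoter, with 41 windows in all. The GC box was in 21 of the 41 (51.2%), against 10197 of all 33469 promoter windows (30.5%). Some of the 41 overlap within a gene, as for Ano10 and Cacna2d1, and each was counted. The 41 belong to genes that passed the level filter, while the 33469 were not chosen by level, so the shares are not like for like. The TEAD element was in 3 of the 41 (Cacna1c, Clcn3 and TRPC2), against 12.1% of all windows, and the CArG box and the AP-1 site in 0 of the 41, against 1.5% and 6.34%. Kcnmb1, and both windows of Kcnk2, held none of the 4 motifs. A match describes letters and not a bound site, and its absence says only that the letters are not in these 250 bases.

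Of the voltage-gated calcium channel genes, the L-type pore fell and an auxiliary subunit rose. Cacna1c encodes the pore through which calcium enters on depolarisation. It was at 25.4, 19.5 and 17.8 FPKM in LH-NS, 13.0, 11.7 and 14.8 in IGF-NS, with 10.0, 13.5 and 14.2 in PDGF-NS. All controls were above all treated libraries. Cacna1c fell by 0.62 ± 0.18 on the log2 scale in IGF-NS (1.59-fold lower, limma adjusted p = 0.028, range 0.0089 to 0.09) and by 0.69 ± 0.18 in PDGF-NS (1.67-fold lower, adjusted p = 0.014, range 0.0043 to 0.053). The IGF-NS call was lost without LH-NS replicate 1 or 2 (adjusted p = 0.078 and 0.053) and without IGF-NS replicate 1 or 2 (0.08 and 0.09), and the PDGF-NS call without PDGF-NS replicate 1 (0.053).

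Cacna2d1 encodes the alpha2-delta subunit that brings calcium channels to the membrane. It was at 15.1, 17.5 and 16.8 FPKM in LH-NS, 15.4, 18.8 and 19.2 in IGF-NS and, for PDGF-NS, 33.9, 44.8 and 47.1. PDGF-NS was above all other libraries, by 2.55-fold over LH-NS (limma adjusted p = 2e-04) and 2.36-fold over IGF-NS (adjusted p = 0.00064), while IGF-NS and LH-NS overlapped (adjusted p = 0.67). In PDGF-NS the pore and this subunit thus went in opposite directions from LH-NS. Cacnb2, the beta subunit tested, was at 2.42, 1.60 and 1.94 FPKM in LH-NS, 1.54, 1.52 and 1.63 in IGF-NS, against 1.72, 2.12 and 2.12 in PDGF-NS, and passed in no comparison.

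Among the non-selective cation channels, Trpc6 and Trpv2 were 9.82-fold and 14.1-fold higher in PDGF-NS than in IGF-NS. Of the 11 tested, 2 rose and 1 fell in IGF-NS, and 5 rose and none fell in PDGF-NS. In IGF-NS the shares, 18.2% higher and 9.09% lower, were near those of all genes (17.4% and 7.48%), and in PDGF-NS 45.5% were higher against 20.7% of all genes. Trpc6 encodes a diacylglycerol-gated channel of receptor-operated calcium entry. It was at 14.8, 15.6 and 31.1 FPKM in LH-NS, 2.21, 2.14 and 2.03 in IGF-NS, with 16.7, 23.5 and 22.5 in PDGF-NS. IGF-NS was below every other library, and PDGF-NS lay inside the range of LH-NS. Trpc6 fell by 2.70 ± 0.25 on the log2 scale in IGF-NS (9.64-fold lower, limma adjusted p = 9.4e-05) and was 9.82-fold higher in PDGF-NS than in IGF-NS (adjusted p = 7.6e-05), against 0.09 ± 0.25 in PDGF-NS over LH-NS (adjusted p = 0.81). The other TRPC genes did not pass: Trpc1, at 2.84 to 6.35 FPKM, and TRPC2, at 0.924 to 2.23, nor did Trpc4ap, a TRPC-associated protein that is no channel, at 48.0 to 74.6 FPKM. Trpc1 was at 2.84, 3.52 and 4.94 FPKM in LH-NS, 3.95, 6.35 and 2.98 in IGF-NS and, for PDGF-NS, 3.36, 4.25 and 3.60.

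Trpv2 encodes a stretch- and growth-factor-responsive cation channel. It was at 1.41, 1.10 and 1.29 FPKM in LH-NS, 0.952, 1.01 and 1.09 in IGF-NS, against 7.19, 19.3 and 16.7 in PDGF-NS. PDGF-NS was above all other libraries, with replicate 1 the lowest of the group. Trpv2 rose by 2.66 ± 0.29 on the log2 scale in PDGF-NS over LH-NS (11.4-fold, limma adjusted p = 0.00013) and by 2.83 ± 0.29 over IGF-NS (14.1-fold, adjusted p = 0.00017), and IGF-NS and LH-NS differed by -0.17 ± 0.29 (adjusted p = 0.71). Trpv2 is also known in macrophages, whose marker sum was highest in PDGF-NS as given above, and the part of that in this result was not tested. Of the 5 macrophage and leukocyte markers in the table, both that were tested had a higher mean in PDGF-NS than in LH-NS. Cd14 was 2.54-fold higher (limma adjusted p = 0.0028). Cd68 averaged 0.208 FPKM in LH-NS, 0.34 in IGF-NS and 4.3 in PDGF-NS. It reached the level filter through PDGF-NS alone, so its difference is given as a description. Of the others, Ptprc was at 0 in all 9 libraries and Csf1r was at most 0.143 FPKM. In PDGF-NS replicates 1, 2 and 3, Cd14 was at 80.1, 42.1 and 56.7 FPKM and Cd68 at 9.37, 1.39 and 2.13. Cd14 and Cd68 were thus highest in replicate 1, where Trpv2 was lowest of the group.

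All 3 tested TRPM genes were called higher in PDGF-NS than in LH-NS, against 20.7% of all genes tested. The call of Trpm4 was lost in 1 alternative, given below. Trpm3, a heat- and steroid-sensitive calcium-permeable channel, was at 4.42, 3.31 and 2.90 FPKM in LH-NS, 6.90, 7.15 and 8.09 in IGF-NS, with 12.5, 19.8 and 17.5 in PDGF-NS. The 3 groups did not overlap. Trpm3 rose by 0.89 ± 0.19 in IGF-NS (2.08-fold, limma adjusted p = 0.0077) and 1.95 ± 0.19 in PDGF-NS (4.69-fold, adjusted p = 5.9e-05), and the treated groups differed by 1.05 ± 0.19 (adjusted p = 0.004). Trpm7, a magnesium-permeable channel fused to a kinase, was at 16.9, 20.6 and 22.0 FPKM in LH-NS, 27.9, 33.2 and 26.3 in IGF-NS and, for PDGF-NS, 36.1, 33.5 and 36.0. The 3 groups again did not overlap, and PDGF-NS was highest. Trpm7 was 1.47-fold higher in IGF-NS (limma adjusted p = 0.019, range 0.016 to 0.089) and 1.78-fold higher in PDGF-NS (adjusted p = 0.0017) than in LH-NS. The IGF-NS call was lost without IGF-NS replicate 2 (adjusted p = 0.066), under median ratio scaling (0.089) and quantile normalization (0.071), and in a fit of the 2 groups alone (0.054).

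Trpm4, a calcium-activated channel that passes sodium and potassium, was at 4.87, 3.23 and 3.06 FPKM in LH-NS, 3.22, 2.44 and 3.86 in IGF-NS, against 6.29, 6.89 and 7.31 in PDGF-NS. PDGF-NS lay above the other groups, by 1.84-fold over LH-NS (limma adjusted p = 0.014, range 0.0055 to 0.056) and 2.15-fold over IGF-NS (adjusted p = 0.0088). The call over LH-NS was lost without PDGF-NS replicate 3 (adjusted p = 0.056). P2rx4, an ATP-gated channel, was at 13.3, 16.0 and 15.8 FPKM in LH-NS, 16.3, 17.8 and 17.7 in IGF-NS, with 26.3, 28.8 and 29.0 in PDGF-NS. The groups did not overlap, but the step from LH-NS to IGF-NS did not pass (limma adjusted p = 0.27). P2rx4 was 1.87-fold higher in PDGF-NS than in LH-NS (limma adjusted p = 0.00053) and 1.62-fold higher than in IGF-NS (adjusted p = 0.004). Piezo1, the stretch-gated channel, was at 17.4, 13.0 and 14.0 FPKM in LH-NS, 12.0, 10.1 and 16.1 in IGF-NS and, for PDGF-NS, 16.3, 15.5 and 15.5. It passed in no comparison, and neither did P2rx5, at 0.989 to 2.31 FPKM.

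**Figure D3:**
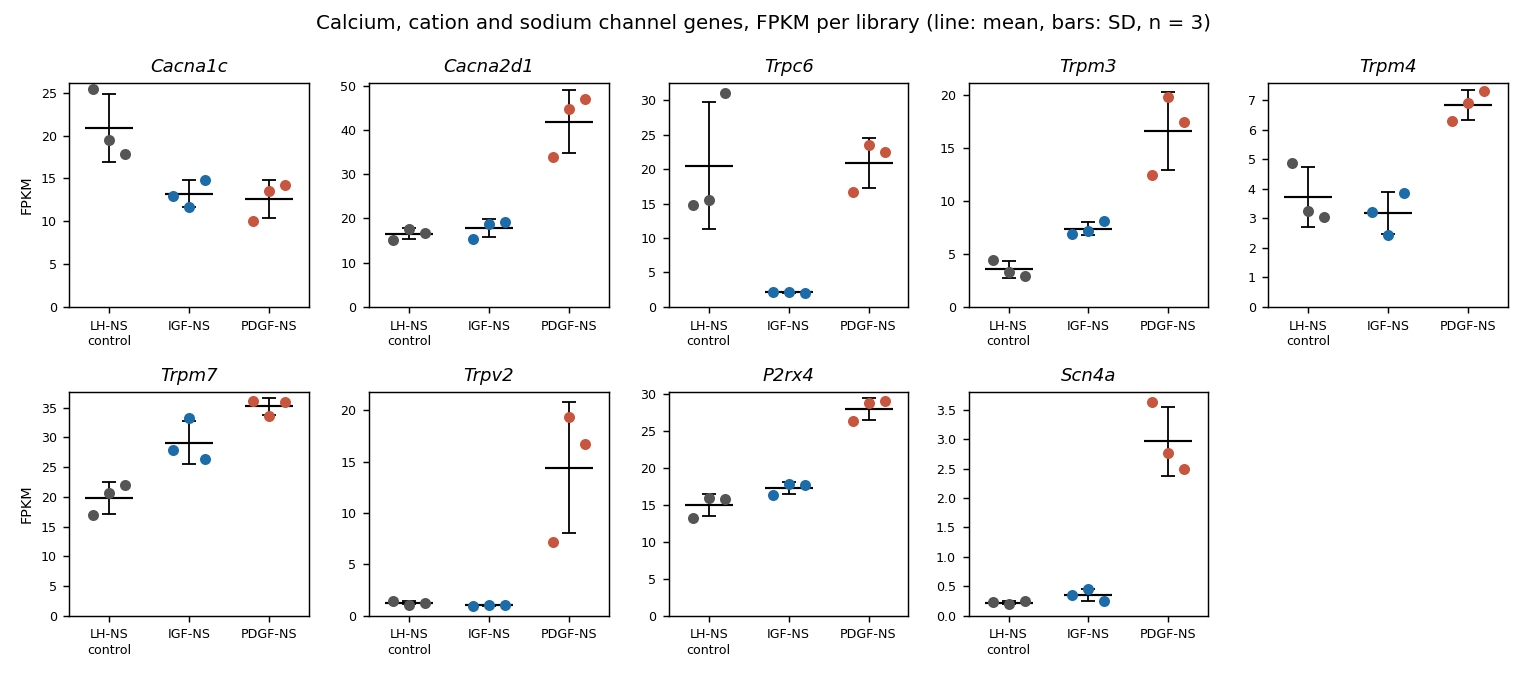
FPKM (y axis, linear, from 0) of calcium, non-selective cation and sodium channel genes by group, with a point for each library, a horizontal line at the mean of 3 libraries and whiskers for the SD. Trpc6 is at 2.03 to 2.21 FPKM in IGF-NS and at 14.8 or more elsewhere, and Trpv2 is at 7.19 to 19.3 FPKM in PDGF-NS and at 1.41 or less elsewhere.

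For comparison with the potassium genes, the window before the RefSeq start of Trpv2, which rose in PDGF-NS, is shown with that of Ano1, which rose in both treated groups. The Trpv2 window (chr10:47771973-47772222, plus strand, GRCr8) is 58.4% G and C and held none of the 4 motifs. The Ano1 window (chr1:209329339-209329588, minus strand) is 74.8% G and C, with its GC boxes in capitals.
Trpv2: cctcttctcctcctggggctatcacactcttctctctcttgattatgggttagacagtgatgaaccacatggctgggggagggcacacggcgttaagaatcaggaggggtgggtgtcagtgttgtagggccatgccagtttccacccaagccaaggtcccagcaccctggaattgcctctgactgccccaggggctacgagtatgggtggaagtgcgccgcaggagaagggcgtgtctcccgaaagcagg
Ano1: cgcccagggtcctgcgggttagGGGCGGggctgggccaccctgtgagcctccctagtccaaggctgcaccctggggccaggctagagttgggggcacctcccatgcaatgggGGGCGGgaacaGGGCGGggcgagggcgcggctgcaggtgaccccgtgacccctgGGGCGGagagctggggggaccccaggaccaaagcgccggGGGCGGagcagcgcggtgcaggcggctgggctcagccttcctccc

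Of the sodium channel genes, Scn4a reached the level filter through PDGF-NS alone, so it had to be higher there and its values are a description. Scn4a encodes the voltage-gated sodium pore known from skeletal muscle. It was at 0.228, 0.194 and 0.252 FPKM in LH-NS, 0.358, 0.463 and 0.245 in IGF-NS, against 3.63, 2.76 and 2.50 in PDGF-NS. All PDGF-NS libraries were above all others, and the other groups overlapped. The mean was 0.224 FPKM in LH-NS, 0.355 in IGF-NS and 2.96 in PDGF-NS.

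Chloride channel genes included the most abundant channel genes, Clic1 and Clic4, and CLIC5, which was at most 1.12 FPKM outside PDGF-NS. Of the 12 tested, 3 rose and none fell in IGF-NS, and 5 rose and 1 fell in PDGF-NS. The share called in IGF-NS, 25.0%, was that of all genes (24.9%), and in PDGF-NS it was 50.0% against 31.0%. Ano1 encodes the calcium-activated chloride channel of smooth muscle. It was at 2.99, 6.11 and 4.01 FPKM in LH-NS, 22.8, 15.8 and 14.5 in IGF-NS and, for PDGF-NS, 45.6, 42.9 and 27.0. The 3 groups did not overlap, with PDGF-NS highest. Ano1 rose by 1.81 ± 0.26 on the log2 scale in IGF-NS (4.05-fold, limma adjusted p = 0.0012) and by 2.89 ± 0.26 in PDGF-NS (8.82-fold, adjusted p = 4.1e-05). The difference between the treated groups was 1.07 ± 0.26 (adjusted p = 0.021, range 0.012 to 0.084), and it was lost without IGF-NS replicate 2 or 3 (0.065 and 0.066) and without PDGF-NS replicate 1 or 2 (0.084 and 0.079).

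Of the other anoctamins, Ano10 rose little and Ano6 and Ano8 did not pass. Ano10, an intracellular member of the family, was at 25.0, 22.0 and 19.6 FPKM in LH-NS, 32.8, 28.3 and 30.2 in IGF-NS, against 35.0, 33.9 and 27.1 in PDGF-NS. Controls were below both treated groups. Its rise was 1.37-fold in IGF-NS (limma adjusted p = 0.044, range 0.031 to 0.18) and 1.44-fold in PDGF-NS (adjusted p = 0.021, range 0.015 to 0.097). Median ratio scaling ended both calls (adjusted p = 0.18 and 0.071). The IGF-NS call was also lost without LH-NS replicate 2 or 3 (0.097 and 0.13), without IGF-NS replicate 1, 2 or 3 (0.14, 0.064 and 0.07) and without PDGF-NS replicate 1 or 2 (0.051 and 0.063). The PDGF-NS call was lost without LH-NS replicate 2 or 3 (0.055 and 0.072) and without PDGF-NS replicate 1 or 2 (0.073 and 0.074). Ano6, a phospholipid scramblase and channel, was at 68.6 to 98.7 FPKM, with all controls above all IGF-NS libraries (log2 difference -0.35, limma adjusted p = 0.065, range 0.017 to 0.15, the lowest under median ratio scaling). Ano8 was at 1.30 to 2.53 FPKM.

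The CLIC proteins occur in soluble and membrane-bound forms, and their role as channels in cells is debated. CLIC5 was at 1.12, 0.583 and 0.964 FPKM in LH-NS, 0.344, 0.405 and 0.125 in IGF-NS, with 20.8, 24.5 and 16.4 in PDGF-NS. PDGF-NS was far above all other libraries, and all IGF-NS libraries were below all controls. Mean FPKM was 23.2-fold higher in PDGF-NS than in LH-NS and 70.7-fold higher than in IGF-NS, ratios that rest on low values. CLIC5 reached the level filter through PDGF-NS alone, so these differences are given as a description. The difference of IGF-NS from LH-NS did not pass (log2 -0.54 ± 0.20, limma adjusted p = 0.068, range 0.024 to 0.35).

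Clic1 was at 312.0, 332.7 and 345.8 FPKM in LH-NS, 315.7, 290.5 and 319.3 in IGF-NS and, for PDGF-NS, 490.8, 561.7 and 584.2. PDGF-NS stood above the other groups, by 1.65-fold over LH-NS (limma adjusted p = 0.0013) and 1.77-fold over IGF-NS (adjusted p = 0.0012). Clic4 was at 226.8, 259.2 and 309.7 FPKM in LH-NS, 192.7, 199.1 and 197.5 in IGF-NS, against 184.8, 223.7 and 221.0 in PDGF-NS. All controls were above all treated libraries, but neither difference passed (limma adjusted p = 0.052 and 0.097). Both passed under median ratio scaling (adjusted p = 0.014 and 0.027) and without LH-NS replicate 1 (0.024 and 0.039), and the IGF-NS difference without PDGF-NS replicate 1 (0.049). The ranges over 18 alternatives were 0.014 to 0.16 and 0.023 to 0.29.

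Clic2 was at 8.28, 8.51 and 9.69 FPKM in LH-NS, 20.2, 23.0 and 15.3 in IGF-NS, with 31.8, 24.9 and 36.3 in PDGF-NS. The 3 groups did not overlap. Clic2 rose 2.21-fold in IGF-NS (limma adjusted p = 0.0029) and 3.51-fold in PDGF-NS (adjusted p = 0.00011). The treated groups differed by 0.64 ± 0.18 on the log2 scale (adjusted p = 0.036, range 0.028 to 0.15), a call lost without LH-NS replicate 2 (0.055), IGF-NS replicate 1 or 3 (0.079 and 0.096), or PDGF-NS replicate 1 or 3 (0.1 and 0.15). It was also lost with no level filter (0.054), with one common sum (0.08) and in a fit of the 2 groups alone (0.055). Clic3 was at 0 to 3.34 FPKM and passed in no comparison.

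Clcn3, a chloride-proton exchanger of endosomes, was the 1 channel gene lower in PDGF-NS than in IGF-NS. It was at 9.26, 9.16 and 11.6 FPKM in LH-NS, 12.0, 15.1 and 13.6 in IGF-NS and, for PDGF-NS, 7.21, 7.00 and 6.98. The 3 groups did not overlap, with LH-NS between the treated groups. Clcn3 was 1.92-fold lower in PDGF-NS than in IGF-NS (limma adjusted p = 0.0023) and 1.41-fold lower than in LH-NS (adjusted p = 0.034, range 0.016 to 0.11). The second of these calls was lost without LH-NS replicate 3 (0.11) and without PDGF-NS replicate 1, 2 or 3 (0.072, 0.09 and 0.1). IGF-NS over LH-NS did not pass (limma adjusted p = 0.054, range 0.039 to 0.23), except without LH-NS replicate 3 (0.039) and with a level filter of at least 5 FPKM (0.049). Clcn6 and Clcn7, also of endosomes and lysosomes, were at 7.69 to 11.8 and 6.78 to 10.1 FPKM and passed in no comparison.

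**Figure D4:**
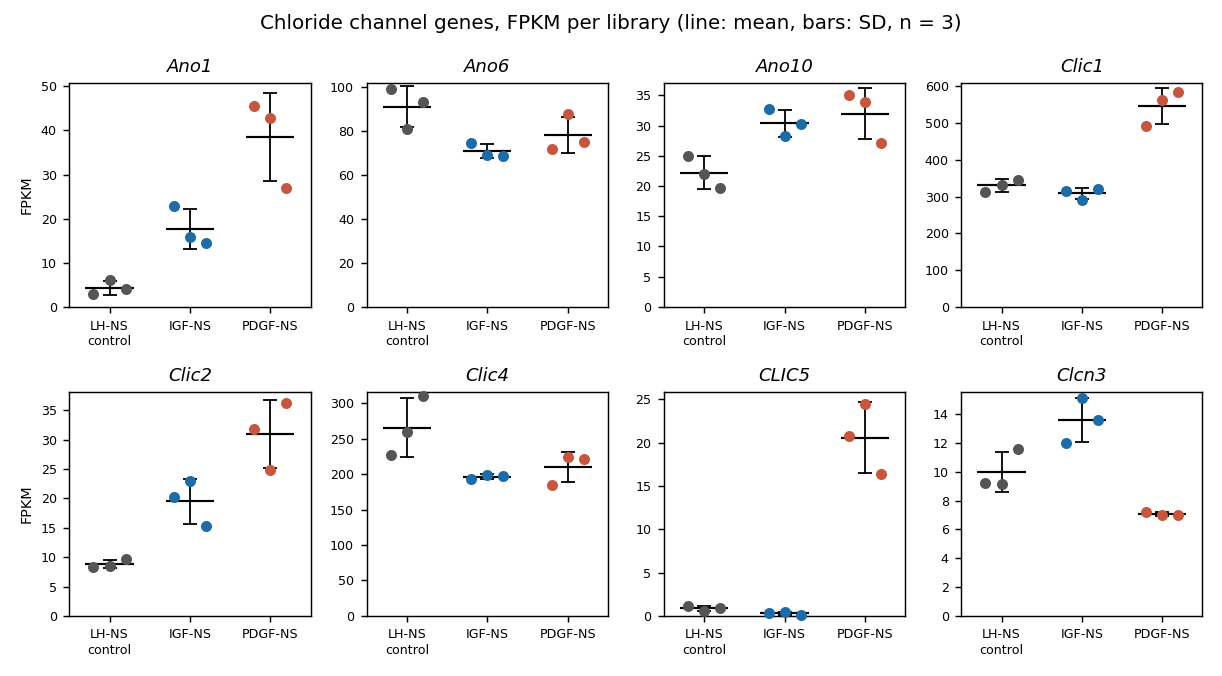
FPKM (y axis, linear, from 0) of chloride channel genes by group, with a point for each library, a horizontal line at the mean of 3 libraries and whiskers for the SD. Ano1 and Clic2 step up from LH-NS to IGF-NS to PDGF-NS without overlap, and CLIC5 is at 16.4 to 24.5 FPKM in PDGF-NS against at most 1.12 elsewhere.

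Other channel genes and the pumps and exchangers that set the ion gradients were listed separately. Of 30 tested genes of intracellular calcium release, store-operated entry, volume-regulated and other channels, 7 rose and 5 fell in IGF-NS, 13 rose and 4 fell in PDGF-NS, and 9 were higher and 2 lower in PDGF-NS than in IGF-NS. The shares called were 40.0%, 56.7% and 36.7%, against 24.9%, 31.0% and 15.9% of all genes. Itpr1, the main inositol trisphosphate receptor of smooth muscle, fell from 20.5 ± 1.91 FPKM (SD, n = 3) in LH-NS to 7.34 ± 0.257 in IGF-NS and 11.3 ± 2.18 in PDGF-NS (limma adjusted p = 0.00025 and 0.0025). Itpr3, another form of that receptor, was at 1.95 ± 0.322, 2.73 ± 0.410 and 13.3 ± 1.27 FPKM, and rose in PDGF-NS only (limma adjusted p = 9e-06, against 0.14 in IGF-NS); the direct difference between the treated groups was 4.89-fold (adjusted p = 4.1e-05). Jph2, which tethers the sarcoplasmic reticulum to the plasma membrane, fell 4.13-fold in IGF-NS and 2.67-fold in PDGF-NS (limma adjusted p = 0.00067 and 0.0027). Orai2, of the store-operated calcium channel family, rose 2.28-fold and 3.79-fold in the same order (adjusted p = 0.0065 and 0.00022).

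Of 19 tested pump and exchanger genes, 2 rose and 6 fell in IGF-NS, 6 rose and 5 fell in PDGF-NS, and 5 were higher and 1 lower in PDGF-NS than in IGF-NS. The shares called were 42.1%, 57.9% and 31.6%, against 24.9%, 31.0% and 15.9% of all genes. The sodium pump subunit Atp1b3 was at 188.1 ± 24.2 FPKM (SD, n = 3) in LH-NS, 301.2 ± 24.2 in IGF-NS and 821.4 ± 149.2 in PDGF-NS. Atp1b3 was higher than in LH-NS by 0.68 in IGF-NS and by 2.11 in PDGF-NS on the log2 scale (limma adjusted p = 0.013 and 1.5e-05). Fxyd5, a regulator of the sodium pump, fell 2.83-fold in IGF-NS (limma adjusted p = 8.3e-05) and rose 2.83-fold in PDGF-NS (adjusted p = 3.4e-05). The calcium pump gene of the sarcoplasmic reticulum, ATP2A2, fell by 0.63 and 0.69 on the log2 scale in the same order (adjusted p = 0.015 and 0.0072). The median log2 fold changes against LH-NS were 0.09 and 0.32 for the other channel genes and -0.46 and -0.13 for the pumps and exchangers, against 0.15 and 0.13 for all genes tested.

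Several channels known from arterial muscle did not reach the level filter. CACNA1G, a T-type calcium pore, was at 0.182 to 0.963 FPKM and Trpv4, an osmo- and stretch-sensitive channel, at 0 to 0.458. Kcnj2, the strong inward rectifier, was listed at 0.218, 0 and 0 FPKM in LH-NS, 0.778, 0.591 and 0.657 in IGF-NS, and at 0 in all PDGF-NS libraries. Kcna5, a delayed rectifier, was at 0.0751, 0 and 0 FPKM in LH-NS, 0.345, 0.365 and 0.226 in IGF-NS, and 0 in PDGF-NS. P2rx1, P2rx7, Kcnn4, Kcnk3 and Cacna1h were under 0.3 FPKM in every library, and Cacnb3 and Kcnk6 were listed at 0 in all 9. The 5 highest means under the filter were those of Cacnb4 (0.999 FPKM), Clic6 (0.955), Cacnb1 (0.896), SCN2A1 (0.875) and Kcnrg (0.86). A listed 0 in a file of FPKM values can be a failed estimate as well as an absence of reads.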

How the data were processed

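The authors deposited FPKM values per gene for each of the 9 libraries, made per the labels' protocols from total RNA with the Lexogen SENSE mRNA kit v2 and, per the submitters' processing notes, with GSNAP and Cufflinks. The sources used here give no versions, settings, genome build, annotation or number of reads, so the depth behind a value is unknown. Each record names its column in the table. Of 26407 rows, 4 genes with failed values and 2 all-zero duplicate rows were left out. Reads shared by near-identical or overlapping genes may have been split in ways that cannot be seen here.

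Values were tested on log2(FPKM + 1) with limma 3.58.1 (variance trend, R 4.3.3) for the 11376 genes that averaged at least 1 FPKM, all 9 libraries in one fit with group as the term, with 3 two-sided contrasts and Benjamini-Hochberg adjustment over all genes. Fold changes on this scale understate those of low genes, and folds in the text are ratios of mean FPKM. The procedure was tested on simulated data. Values in every library are given for genes that passed and reached a mean of 5 FPKM in 1 of the groups compared and for a list of vascular channels, and every gene over the filter could be named. The values of a few channel and other listed genes are not reported here, though counts include them. The channel genes, the other lists, the markers and the motifs were chosen with earlier results of these data known. The alternatives were other pseudocounts, other level filters, 3 rescalings, fits of 2 groups, a replicate block, and leaving out each library.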

Additional observations from a re-analysis of the deposited data

How the results depend on the processing

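Of 126 gene and comparison results, 53 were called, 43 of these kept the call in every alternative that tested them (17 or 18), 10 lost it in at least 1, and 0 changed sign while called. Of the 73 not called, 12 were called in at least 1 alternative. The 7 genes lower in IGF-NS than in LH-NS became 4 with a mean of at least 5 FPKM, where fewer genes were tested, and 11 with quantile normalization. The 5 lower in PDGF-NS than in LH-NS became 8 with no level filter, and the 1 lower in PDGF-NS than in IGF-NS became 5 with no level filter, 3 with one common sum and 2 in a fit of only these 2 groups. The filters change which genes are tested, and the cause of the other shifts was not tested. Leaving out each library gave 7 to 9 higher and 5 to 8 lower in IGF-NS against LH-NS, 16 to 17 and 3 to 6 in PDGF-NS against LH-NS, and 13 to 15 and 1 to 2 between the treated groups. Of all calls, 69.9% were higher in IGF-NS and 66.9% in PDGF-NS against LH-NS, and 49.1% and 51.8% under median ratio scaling. Between the treated groups the share was 52.5%, and 33.2% with one common sum. After group means were subtracted, the 9 same-numbered pairs of libraries correlated from -0.28 to 0.25, with 2 over 0.1. Differently numbered pairs correlated from -0.51 to 0.41. With deviations from a mean of 3 libraries, these values cannot decide whether replicate numbers mark shared cultures or days. With a replicate block, 8 higher and 5 lower, 17 and 4, and 14 and 1 were called in the 3 comparisons. The calls lost with the block were those of Cacna1c (adjusted p = 0.057) and Kcnq1 (0.06) in IGF-NS against LH-NS, Clcn3 (0.056) in PDGF-NS against LH-NS and Clic2 (0.075) between the treated groups. Precision is limited by 3 libraries a group and an unknown read depth.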

Other observations

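Among channel genes under the level filter, a few stood apart in the fit without that filter (limma with Benjamini-Hochberg adjustment). They were chosen after their values were seen. Their differences and adjusted p-values are therefore a description and no support for a difference. In PDGF-NS over LH-NS, the log2 difference was 1.24 for Scn4b, a sodium channel beta subunit (adjusted p = 0.00012), 1.16 for Kcna4, an A-type potassium pore (adjusted p = 0.00085), and 1.24 for Cacna1a, the pore of P/Q-type calcium channels (adjusted p = 0.0018). Cacnb4, a calcium channel beta subunit, was lower in PDGF-NS than in LH-NS (-0.88, adjusted p = 0.014). In IGF-NS over LH-NS, Clic6 was higher by 1.14 (adjusted p = 0.0013), Kcnj2 by 0.65 (adjusted p = 0.002) and Kcna5 by 0.36 (adjusted p = 0.0045), and Kcnf1, a silent voltage-gated subunit, was lower (-0.74, adjusted p = 0.00096).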
